A study of Mus musculus with 9 samples.

Results

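Ripk1, Birc2, Birc3, Cflar, Tnfrsf1a, Tnfrsf1b, Traf1, Traf2, Tradd and Casp8 encode the tumour necrosis factor (TNF) receptors and the proteins that assemble on them. These 10 genes, of 55536 gene rows, were chosen by name for their roles in that complex, with earlier results of the same comparison known and with no threshold on a value. Their fold changes and adjusted p-values therefore describe these genes and are no independent evidence of a direction. RNA sequencing had been done on quadriceps muscle of C57BL/6 mice given volumetric muscle loss, the surgical removal of a piece of muscle. Of the 9 libraries, 4 are labelled wild type (WT) and 5 are labelled Il17ra-/-, a knockout of a receptor subunit for interleukin-17. All 9 carry the same injury, an age of 6 weeks and the material saline with a harvest 1 week after surgery in the sample characteristics, while the extraction protocol speaks of PCL and 6 weeks. The sources used here do not settle which holds, and they state neither the exons removed in the knockout nor the sex of the mice. The design text speaks of triplicate animals, and no label ties a library to an animal, so that p-values measure the spread between these libraries, which may in part be technical.

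TNF binds TNFR1, which most cells carry, or TNFR2, which is more restricted. TNFR1 recruits the adaptor TRADD, the kinase RIPK1, TRAF2 and the ubiquitin ligases cIAP1 and cIAP2, and ubiquitin chains on RIPK1 then serve as a platform for NF-kB and MAP kinase signalling, which induces survival genes. When this platform fails, RIPK1 can enter a second complex with FADD and caspase-8, where the caspase-like protein cFLIP sets whether the cell lives or dies by apoptosis, and RIPK3 and MLKL drive necroptosis where caspase-8 is blocked.

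Library totals ran from 31294089 to 46435401 counts, and the targeted gene did not follow its label. Il17ra (chr6:120463247-120487559, GRCm38) stood at 96.8 ± 19.7 CPM (counts scaled to library size; SD, n = 4) in the libraries labelled WT while the libraries labelled Il17ra-/- had 208 ± 43.2 CPM (n = 5), the higher level of the pair (log2 fold change 1.11, SE 0.17, edgeR adjusted p = 0.00208). Directions are therefore given by label, and whether the labels are right was not tested. WT replicate 2 lay apart on the first principal component, at −66.2 against −7.66 to 27.5 in the others, and had the fewest genes with a count, 17256. Fibroblast markers were abundant, with 6 markers summing to 38371 to 52383 CPM per library, while 5 muscle fibre markers summed to 939 to 3450 CPM. Among leukocyte markers, Ptprc, the pan-leukocyte marker CD45, reached at most 0.461 CPM, while Lyz2 reached 10.6 CPM and Cd68 24.2 CPM. Among endothelial markers, Pecam1 reached at most 3.38 CPM, while Tek stood at 229 to 365 CPM. Which cells the libraries hold was not tested.

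Within the TNF receptor complex, Ripk1 stood out and most other members differed little between the labels. Of the 10 genes, all passed the filter on low counts, 2 were called lower in the libraries labelled Il17ra-/- (Ripk1 and Birc3) and 0 were called higher (edgeR, and likewise 0 by DESeq2, by limma voom and at an unadjusted p under 0.05). Over all 16039 tested genes, 3.06% were called at an adjusted p under 0.05, 1.71% lower and 1.35% higher. The same 2 members were those whose groups did not overlap, against 9.18% of all tested genes. The median log2 fold change (labelled Il17ra-/- minus labelled WT) was −0.14 over the members and −0.00 over all tested genes, and 7 of the 10 members against 50.3% of all tested genes had a negative value. In RNA from many cells together such a difference can reflect fewer cells of a type or less RNA per cell, and these cannot be told apart here.

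**Figure D1:**
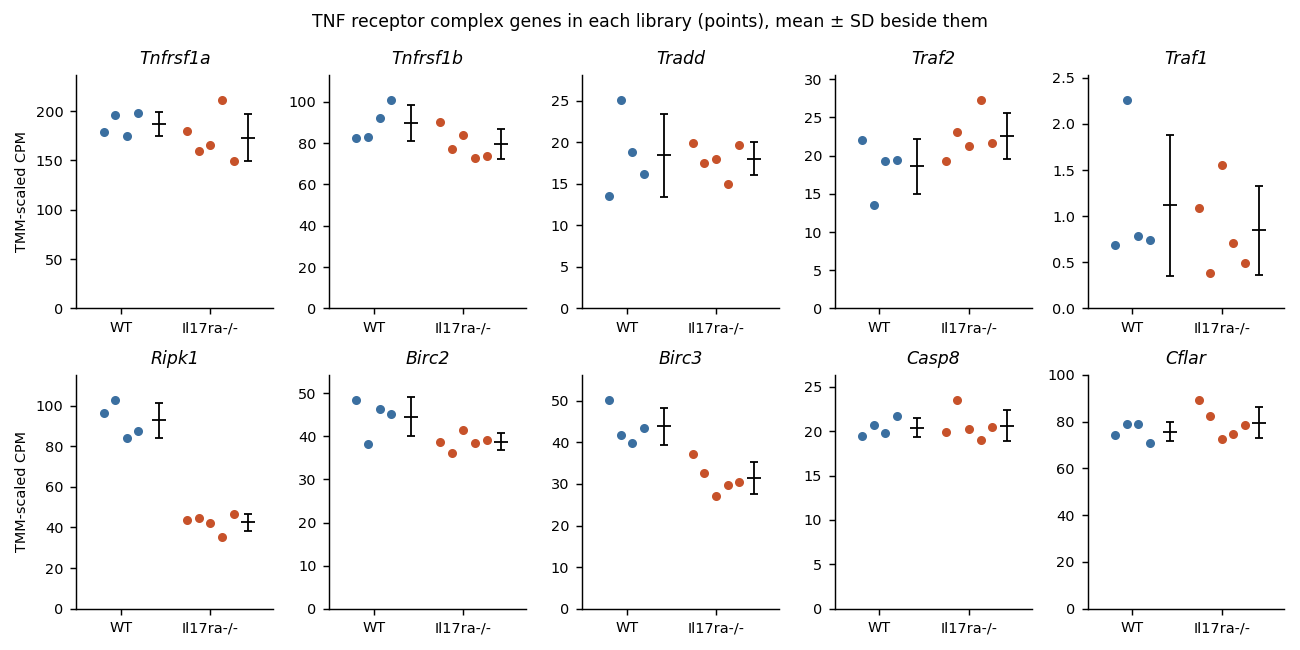
CPM scaled with TMM factors (vertical axes from 0, each gene with its own scale) of the 10 genes in the 4 libraries labelled WT (blue) and the 5 labelled Il17ra-/- (orange); each point is a library and the black marks are mean ± SD. Ripk1 and Birc3 are the panels in which the groups do not overlap, with Ripk1 at 84.0 to 103 CPM against 35.2 to 46.5 CPM.

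Ripk1 encodes the kinase that carries the ubiquitin platform of the TNFR1 complex and that, when freed from it, takes part in apoptosis and necroptosis. In the libraries labelled WT it stood at 96.5, 103, 84.0 and 87.6 CPM in replicates 1 to 4. In those labelled Il17ra-/- it stood at 43.5, 44.9, 42.3, 35.2 and 46.5 CPM in replicates 1 to 5. Every value of the first group thus lay well above every value of the second, and between 1297 and 3521 counts stood behind each. The means were 92.7 ± 8.54 CPM (n = 4) and 42.5 ± 4.37 CPM (n = 5), a 2.18-fold lower level in the libraries labelled Il17ra-/- (log2 fold change −1.13, SE 0.11, 95% interval −1.36 to −0.89, edgeR adjusted p = 1.53e-04). By its p-value Ripk1 ranked 11 of the 16039 tested genes. Without WT replicate 2 the log2 fold change was −1.07 (adjusted p = 6.40e-05). With library totals as the only scaling it was −1.06.

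The position of Ripk1 among the complex genes of the same library restates the same counts without any scaling between libraries. It is no separate evidence. Ranked by TPM, a level scaled to transcript length and library size, Ripk1 was number 3, 4, 5 and 3 of the 10 members in WT replicates 1 to 4. In the libraries labelled Il17ra-/- it was number 8 in 4 of them and number 9 in replicate 4. Its TPM ran from 36.9 to 40.9 in the first group and from 16.1 to 21.4 in the second.

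The gene lies at chr13:34002363-34037147 on the plus strand (GRCm38). Of its annotated exon bases, 9.01% are shared with other genes, and reads within them are not assigned to a gene. Serpinb6a, on the minus strand, shares 241 bp near the Ripk1 start, which counting without strand cannot separate. It stood at 643 ± 152 against 493 ± 44.1 CPM (log2 fold change −0.38, edgeR adjusted p = 0.195). The processed pseudogene Gm17084, on the plus strand like Ripk1, shares 511 bp of the last exon and had 0 counts in all 9 libraries. As reads within shared bases are assigned to neither gene, these 0 counts do not show that the pseudogene is silent. Whether these shared bases bear on the Ripk1 value was not tested.

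Birc2 and Birc3 encode cIAP1 and cIAP2, the ubiquitin ligases that attach chains to RIPK1, and Birc3 is known as a gene that NF-kB induces. They lie beside each other on the minus strand of chromosome 9, Birc2 at chr9:7818227-7837064 and Birc3 at chr9:7848699-7873186, with 11634 bp between them. Birc3 stood at 50.2, 41.7, 39.8 and 43.5 CPM in WT replicates 1 to 4 and at 37.2, 32.5, 27.0, 29.9 and 30.4 CPM in Il17ra-/- replicates 1 to 5. The lowest WT value and the highest Il17ra-/- value lie close together, 39.8 against 37.2 CPM. The means were 43.8 ± 4.52 and 31.4 ± 3.81 CPM, 1.39-fold lower in the libraries labelled Il17ra-/- (log2 fold change −0.48, SE 0.12, 95% interval −0.74 to −0.22, edgeR adjusted p = 0.0498). This p is at the threshold, and the call was kept under 7 of 18 alternatives, with adjusted p-values from 0.00893 to 0.142. It was lost without WT replicate 1 (−0.40, adjusted p = 0.142), 3 (0.0734) or 4 (0.0931) and without Il17ra-/- replicate 2 (0.0957), 3 (0.135), 4 (0.118) or 5 (0.112).

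Birc2, its neighbour and paralog, stood at 48.5, 38.2, 46.4 and 45.3 CPM in the libraries labelled WT and at 38.6, 36.2, 41.6, 38.4 and 39.2 CPM in those labelled Il17ra-/-. The groups overlapped through WT replicate 2, and the gene did not pass (log2 fold change −0.20, 95% interval −0.43 to 0.03, adjusted p = 0.368). The ratio of Birc3 to Birc2 within a library, on the TPM scale, was 0.902 ± 0.0934 (n = 4) and 0.743 ± 0.111 (n = 5), and the ranges of 0.784 to 1.00 and 0.593 to 0.881 overlapped.

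The 250 bases before the start of transcription are shown for Ripk1 and Birc3, the called members, and for Tnfaip3, a called gene of the same pathway that is described below and is known as an NF-kB target. Sequences are from RefSeq on GRCm38.p6, 5′ to 3′ on the gene's strand. The windows are chr13:34002113-34002362 (plus) for Ripk1, chr9:7873171-7873420 (minus) for Birc3 and chr10:19015411-19015660 (minus) for Tnfaip3. Capitals mark matches on either strand to the GC box GGGCGG, the AP-1 motif TGANTCA, the interferon-stimulated response element GAAANNGAAA or the kappaB consensus, the motif bound by NF-kB.
Ripk1: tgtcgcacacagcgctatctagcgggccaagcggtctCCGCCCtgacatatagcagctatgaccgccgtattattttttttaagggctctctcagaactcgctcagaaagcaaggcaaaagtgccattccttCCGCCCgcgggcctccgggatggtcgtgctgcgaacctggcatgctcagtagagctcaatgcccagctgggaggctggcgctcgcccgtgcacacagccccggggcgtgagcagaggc
Birc3: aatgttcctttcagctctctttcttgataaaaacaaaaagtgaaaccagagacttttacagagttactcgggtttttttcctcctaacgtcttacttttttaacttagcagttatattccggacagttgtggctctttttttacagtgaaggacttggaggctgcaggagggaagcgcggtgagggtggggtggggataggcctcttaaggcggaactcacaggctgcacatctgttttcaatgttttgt
Tnfaip3: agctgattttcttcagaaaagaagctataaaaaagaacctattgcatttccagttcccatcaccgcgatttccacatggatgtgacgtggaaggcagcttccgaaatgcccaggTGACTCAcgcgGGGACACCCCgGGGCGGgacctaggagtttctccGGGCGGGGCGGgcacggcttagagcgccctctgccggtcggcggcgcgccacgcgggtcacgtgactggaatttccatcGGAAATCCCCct

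The 3 windows differ in these letters. That of Ripk1 holds 2 GC boxes, both on the opposite strand, and no match to the other motifs. The Birc3 window holds no match to any of the 4 motifs and has a GC content of 43.6%, against 60.8% for Ripk1. That of Tnfaip3 holds 2 matches to the kappaB consensus (116 to 125 and 3 to 12 bases before the start), an AP-1 match that reads on both strands, and 3 GC boxes, of which a pair overlaps by 1 base. Over all 32851 windows of this length in the table, 3.9% held a kappaB match, 6.75% an AP-1 match, 2.98% the interferon element and 32.7% a GC box. RefSeq windows were matched for 9 of the 10 members (11 windows, Tradd not among them), of which 0 held a kappaB or AP-1 match, 1 (Tnfrsf1b) held the interferon element and 4, of Ripk1, Birc2 and Tnfrsf1b, held a GC box. RefSeq lists a further start for Ripk1 and for Tnfaip3, whose windows are not shown. A match is a description of letters and not a binding site.

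The receptors were the most abundant members on the TPM scale and showed no called difference. In mean CPM, Tnfrsf1a was the highest member in both labels. Tnfrsf1b lay below Ripk1 in the libraries labelled WT (89.6 against 92.7 CPM) and level with Cflar in those labelled Il17ra-/- (79.6 against 79.5 CPM). Tnfrsf1a, which encodes TNFR1, stood at 178, 196, 175 and 198 CPM in WT replicates 1 to 4 and at 179, 159, 166, 212 and 149.5 CPM in Il17ra-/- replicates 1 to 5. Il17ra-/- replicate 4 held the highest value of all 9 libraries and replicate 5 of the same label the lowest, so that the groups overlapped fully (log2 fold change −0.11, 95% interval −0.36 to 0.14, adjusted p = 0.687). Tnfrsf1a lies at chr6:125349362-125362484, 4.86 Mb from Il17ra on the same chromosome. Among the 208 tested genes within 10 Mb of Il17ra, 11 were called (5.29%), 5 of them lower. Over all tested genes 3.06% were called, 1.71% lower.

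Tnfrsf1b (chr4:145213463-145246870), which encodes TNFR2, stood at 82.6, 82.8, 92.0 and 101 CPM in the libraries labelled WT and at 90.2, 77.1, 84.0, 73.0 and 73.5 CPM in those labelled Il17ra-/-. These ranges overlapped as well (−0.17, 95% interval −0.40 to 0.06, adjusted p = 0.459). The ratio of Tnfrsf1b to Tnfrsf1a on the TPM scale was 0.326 ± 0.0321 (n = 4) and 0.316 ± 0.0464 (n = 5), so that TNFR2 transcripts were fewer than TNFR1 transcripts in all 9 libraries.

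The adaptors that bring signalling proteins to the receptors were not called. Tradd (chr8:105258286-105264609), which binds the death domain of TNFR1, stood at 13.6, 25.2, 18.8 and 16.2 CPM in WT replicates 1 to 4 and at 19.9, 17.5, 18.0, 15.0 and 19.7 CPM in Il17ra-/- replicates 1 to 5. WT replicates 1 and 2 held the lowest and the highest value of all libraries (log2 fold change −0.03, 95% interval −0.41 to 0.34, adjusted p = 0.948), and without WT replicate 2 the sign changed (0.16, adjusted p = 0.686). Traf2 (chr2:25517982-25546940), which carries cIAP1 and cIAP2 to the complex, stood at 22.0, 13.6, 19.3 and 19.4 CPM against 19.3, 23.1, 21.3, 27.3 and 21.6 CPM. It had the largest positive value among the members, and did not pass (0.28, 95% interval −0.06 to 0.62, adjusted p = 0.412). Without WT replicate 2, in which Traf2 was lowest and Tradd highest, the Traf2 value was 0.16 (adjusted p = 0.645).

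Traf1 (chr2:34941750-34961772), a TRAF without the ring domain of its relatives and a known NF-kB target, was near the limit of what these libraries measure. It stood at 0.685, 2.26, 0.783 and 0.746 CPM in the libraries labelled WT and at 1.09, 0.383, 1.55, 0.705 and 0.495 CPM in those labelled Il17ra-/-, from 18 to 72 counts. WT replicate 2 alone carried the higher WT mean, and without it the log2 fold change went from −0.40 (95% interval −1.78 to 0.98, adjusted p = 0.805) to 0.20 (adjusted p = 0.929). The interval is wide enough to hold a difference as large as that of Ripk1.

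Casp8 and Cflar, the caspase that starts apoptosis from the receptor and its caspase-like partner cFLIP, had levels that interleaved between the labels. Both lie on the plus strand of chromosome 1, Cflar at chr1:58711508-58758884 and Casp8 at chr1:58795374-58847503. Casp8 stood at 19.4, 20.7, 19.8 and 21.7 CPM in the libraries labelled WT and at 19.9, 23.5, 20.2, 19.0 and 20.5 CPM in those labelled Il17ra-/-. The means, 20.4 ± 1.05 and 20.6 ± 1.72 CPM, differed by less than the spread between replicates (log2 fold change 0.02, 95% interval −0.24 to 0.27, adjusted p = 0.963). Cflar stood at 74.2, 79.1, 79.1 and 70.8 CPM against 89.3, 82.2, 72.5, 74.9 and 78.7 CPM, and these groups overlapped too (0.07, 95% interval −0.14 to 0.28, adjusted p = 0.777). The ratio of Cflar to Casp8 on the TPM scale was 0.850 ± 0.0741 (n = 4) and 0.884 ± 0.0885 (n = 5). For both genes the interval leaves out a difference of the size found for Ripk1.

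**Figure D2:**
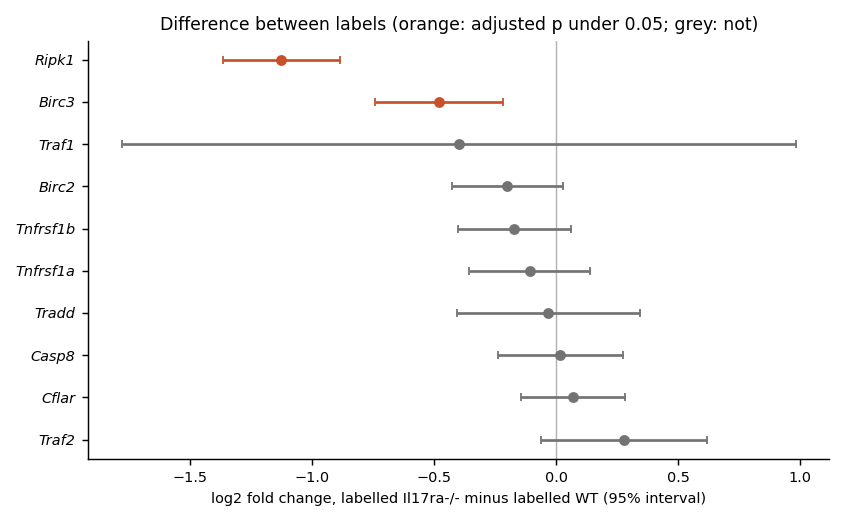
Log2 fold change of each member, labelled Il17ra-/- minus labelled WT (horizontal axis), with its 95% interval from edgeR's quasi-likelihood fit; orange points passed at an adjusted p under 0.05 and grey points did not. The intervals of Ripk1 (−1.36 to −0.89) and Birc3 (−0.74 to −0.22) lie below 0, and that of Traf1 is the widest.

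Per transcript length, levels of the complex spanned a wide range. Mean TPM over the 9 libraries was 252 for Tnfrsf1a, 80.5 for Tnfrsf1b, 35.5 for Tradd, 33.0 for Birc2, 27.8 for Ripk1, 26.8 for Birc3, 26.0 for Casp8, 22.5 for Cflar, 15.0 for Traf2 and 0.392 for Traf1. Tnfrsf1a (222 to 311 TPM) and Tnfrsf1b (66.0 to 96.3 TPM) did not overlap with each other or with any other member. From Tradd to Cflar each gene's range over all libraries overlapped that of its neighbour in the order, but within libraries part of the order held. Tradd and Birc2 were each above Cflar in all 9 libraries. Ripk1 was above Birc3, Casp8 and Cflar in all 4 libraries labelled WT and below all of them in the 5 labelled Il17ra-/-. Traf2 (8.11 to 20.4 TPM) overlapped in range with Cflar (19.0 to 26.7 TPM) but was below it in all 9 libraries, and Traf1 (0.162 to 0.781 TPM) lay below all others.

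Of the 6 listed ligands of the TNF family, Tnf and Lta encode ligands of TNFR1 and TNFR2, and both were scarce beside these receptors. Tnf stood at 0.904, 1.84, 0.307 and 0.0861 CPM in WT replicates 1 to 4, from 33, 56, 11 and 3 counts. In the libraries labelled Il17ra-/- it had 0, 1, 0, 0 and 25 counts in replicates 1 to 5. The groups overlapped through Il17ra-/- replicate 5 and the gene did not pass (adjusted p = 0.374). A library with 0 counts allows up to 3 counts, which is 0.0638 to 0.0984 CPM over all 9 libraries. In Il17ra-/- replicates 1, 3 and 4, where Tnf had 0 counts, this limit is 0.0763, 0.0647 and 0.0813 CPM. Lta, encoding lymphotoxin alpha, had 39 counts in WT replicate 2, 5 in Il17ra-/- replicate 5 and 0 in the other libraries. Ltb had 0 counts in all 9, Fasl had 3 counts in Il17ra-/- replicate 5 alone, and these 3 genes were not tested. Tnfsf10, which encodes TRAIL, a ligand of death receptors other than TNFR1, stood at 1.52 ± 1.01 against 4.13 ± 1.13 CPM in groups that did not overlap, and did not pass (log2 fold change 1.44, SE 0.47, adjusted p = 0.134). Tnfsf12, which encodes TWEAK, a ligand of another receptor of the family (Tnfrsf12a) and not of TNFR1 or TNFR2, stood at 58.2 ± 19.0 and 45.4 ± 2.20 CPM (−0.36, adjusted p = 0.303).

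**Figure D3:**
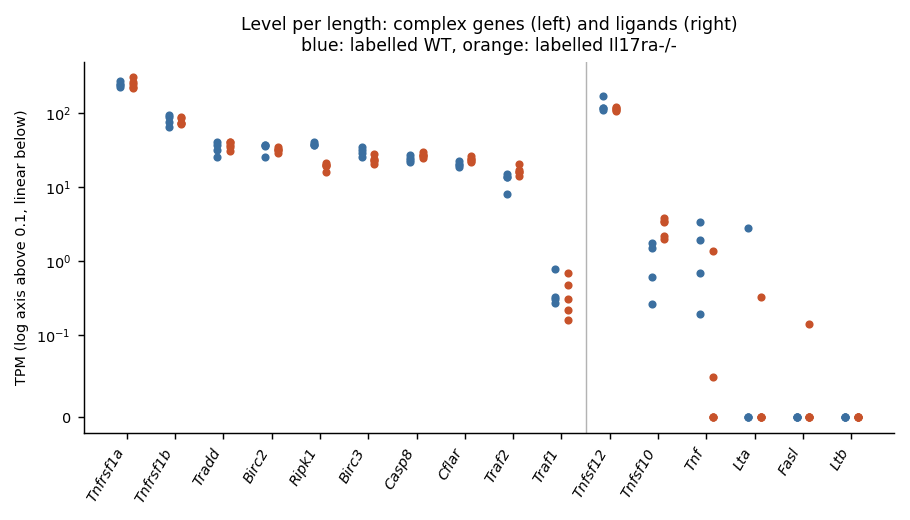
TPM of the complex genes in order of their mean (left of the line) and of 6 ligands (right), in each library labelled WT (blue) and Il17ra-/- (orange); the vertical axis is logarithmic above 0.1 TPM and linear below. Lta, Fasl and Ltb lie at 0 in most libraries, while Tnfrsf1a lies at 222 to 311 TPM.

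Beyond the members, 54 other genes of the pathway were listed, with earlier results of these data known, and 51 were tested. Of these, 2 were called lower and 0 higher in the libraries labelled Il17ra-/-, which is 3.92% beside the 3.06% called over all genes. The median log2 fold change was −0.03, and 10 of the 51 (19.6%) had groups that did not overlap, against 9.18% of all tested genes. At an unadjusted p under 0.05, 5 were higher and 9 lower. Over all 16039 tested genes, Tnfsf12, with an unadjusted edgeR p of 0.0495, ranked 2620 by p. DESeq2 called 3 higher (Traf6, Tnfsf10 and Xiap) and 4 lower (Mcl1, Tnip2, Bax and Tnfaip3), beside 1026 called of all 16039, 504 of them lower. The limma voom fit called 0 higher and 2 lower, beside 499 called of all 16039, 276 of them lower.

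Tnfaip3, which encodes A20, the ubiquitin-editing enzyme that ends NF-kB signalling from the TNFR1 complex, was one of the called genes. It stood at 51.0, 49.3, 40.2 and 53.2 CPM in WT replicates 1 to 4 and at 28.8, 34.6, 28.4, 31.3 and 33.3 CPM in Il17ra-/- replicates 1 to 5. No value of the second group reached the lowest of the first (48.4 ± 5.72 against 31.3 ± 2.73 CPM, log2 fold change −0.63, SE 0.12, adjusted p = 0.00874). Mcl1, which encodes an anti-apoptotic member of the BCL2 family, was the other, at 936, 1036, 876 and 865 CPM against 460, 589, 494, 602 and 630 CPM. The groups were again apart (928 ± 78.2 against 555 ± 73.6 CPM, −0.74, SE 0.12, adjusted p = 0.00309). Both calls were kept under all 18 alternatives.

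In edgeR's test no other role of the pathway held a call. Among the 5 other receptors of the family the smallest p belonged to Tnfrsf12a, the TWEAK receptor, at 49.3 ± 24.1 and 32.6 ± 8.80 CPM (−0.60, adjusted p = 0.283). Adam17, the protease that sheds TNF and its receptors, stood at 166 ± 27.2 and 151 ± 7.09 CPM (−0.14, adjusted p = 0.599). Of 4 adaptors, Traf6 came closest (0.47, adjusted p = 0.121), and of the 3 subunits of the linear ubiquitin ligase, Rbck1, which encodes HOIL-1 (−0.22, adjusted p = 0.348).

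Kinases of the pathway and their partners numbered 13, and Chuk, which encodes IKK alpha, had the smallest p among them (−0.35, edgeR adjusted p = 0.186). Of the necroptosis genes, Ripk3 stood at 8.13 ± 2.34 and 7.85 ± 2.42 CPM. Mlkl, the pore-forming effector, stood at 14.6 ± 2.72 and 13.6 ± 2.67 CPM (−0.11, adjusted p = 0.825). Zbp1, also listed under necroptosis, stood above both in each label, at 45.6 ± 9.15 and 42.1 ± 16.3 CPM (−0.11, edgeR adjusted p = 0.857). Fadd, the adaptor of caspase-8, stood at 6.96 ± 2.07 and 8.40 ± 1.48 CPM (0.27, adjusted p = 0.608). Besides Mcl1, 12 apoptosis genes were tested and 0 passed in edgeR. At an unadjusted p under 0.05, 3 were higher and 1 lower. Over all 16039 tested genes, an unadjusted edgeR p of 0.0495 stood at rank 2620. DESeq2 called Xiap and Bax of these apoptosis genes, beside 1026 called of all 16039. Xiap, a relative of the cIAPs that blocks caspases, had a value of 0.48 (adjusted p = 0.117) and the pro-apoptotic Bax one of −0.55 (adjusted p = 0.0767). Tnip2, a partner of A20, was close to the threshold at 28.1 ± 2.74 and 19.96 ± 2.60 CPM (−0.49, adjusted p = 0.0634).

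**Figure D4:**
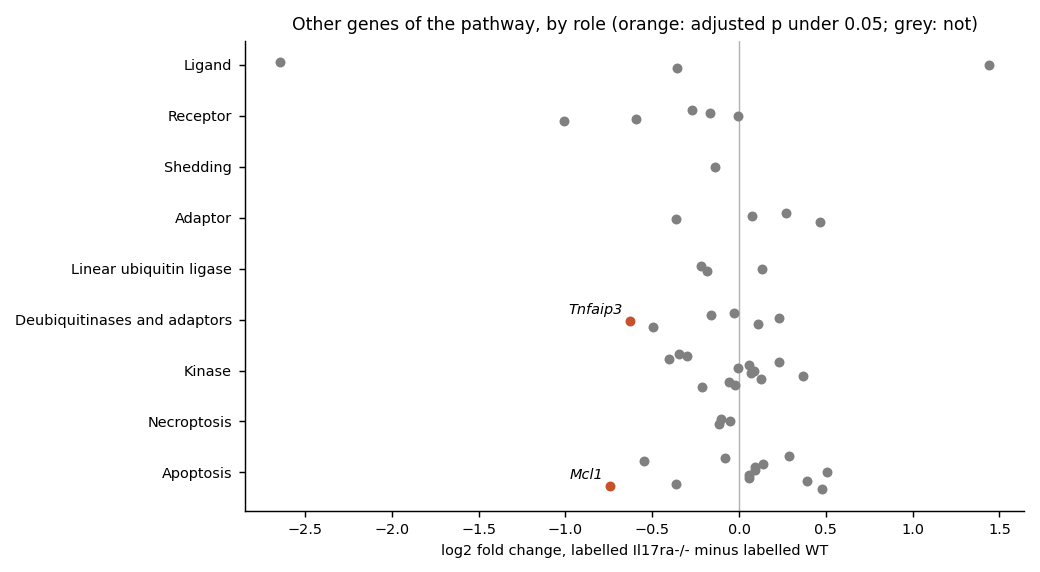
Log2 fold change (horizontal axis, labelled Il17ra-/- minus labelled WT) of the 51 tested other genes of the pathway, in rows by role; each point is a gene, orange where the adjusted p was under 0.05 and grey where not. Tnfaip3 (−0.63) and Mcl1 (−0.74) are the called genes, and the points farthest from 0 are the scarce ligands Tnf and Tnfsf10.

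Several cell type markers moved with the same labels. All 4 mural cell markers were called higher (summed level 657 to 818 CPM in the libraries labelled WT, 1095 to 1581 CPM in those labelled Il17ra-/-), as were Acta1 and Mb of the 5 muscle fibre markers (939 to 2369 against 2586 to 3450 CPM). Of the 17 leukocyte markers 8 were tested, and Cd68 alone was called, lower. Their sum was 24.6 to 41.2 against 9.74 to 18.7 CPM, and without Cd68 it was 11.2 to 17.0 against 7.81 to 17.0 CPM. Pi16 was called lower among the 6 fibroblast markers, whose sum was 45357 to 49869 against 38371 to 52383 CPM. Of the 6 endothelial markers none was called (258 to 453 against 301 to 378 CPM). Most of that sum was Tek, at 229 to 365 against 239 to 330 CPM, while Pecam1, Tie1 and Emcn reached at most 3.38, 1.63 and 1.15 CPM. The part of these differences in the Ripk1, Birc3, Tnfaip3 and Mcl1 values was not tested.

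The genes whose variation between libraries of the same label was most like that of Ripk1 were Rab24, Dnal4, Clec11a, Ero1lb and Adamts7, with Pearson correlations of 0.952, 0.939, 0.934, 0.933 and 0.933. These are correlations of log2(CPM + 1) over the 9 libraries with the group means taken off, the highest of 9124 genes compared, and the libraries share depth and scaling. None of the 5 was called between the labels. Their smallest adjusted p was 0.163, for Clec11a.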

How the data were processed

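The deposited values are whole-number counts of read pairs per gene. Per the file headers, the authors made them with featureCounts 1.6.0 over exons summed by gene, with the GENCODE M21 annotation (GRCm38) and without strand. The submitters' processing notes name STAR as aligner, without a version. Per the labels' protocols, RNA had an integrity number above 8.0 and libraries came from the TruSeq v2 kit. All 55536 gene identifiers matched GENCODE M21.

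Low counts were filtered with filterByExpr, which left 16039 genes, libraries were scaled with TMM, and the labels were compared across all genes with edgeR 4.0.16 (R 4.3.3), quasi-likelihood test, two-sided, genotype label alone, Benjamini-Hochberg adjustment over all tested genes, threshold 0.05. SE was computed as the size of the log2 fold change divided by the root of F, and intervals use the fit's degrees of freedom. The procedure was tested on simulated counts. The members and gene lists were chosen with earlier results of these data known. Named genes are the members, Il17ra, called pathway genes, the pathway gene with the smallest p per role, and the 5 genes most like the member with the smallest p. Lta, Ltb, Fasl, Tnfsf12, Tnf, Ripk3, Zbp1, Fadd, Xiap, Bax, Tnip2, the markers and the genes sharing Ripk1 exon bases were added after values were seen. Intervals and limits cover counting error and spread between libraries. Alternatives were other scalings and filters, DESeq2 1.42.0, limma 3.58.1 (voom), a replicate block and leaving out libraries.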

Additional observations from a re-analysis of the deposited data

Results flagged for a closer look

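In 22 groups (the 10 members and Il17ra, each in both labels), 2 held a library far from the rest of its group, and chance alone gives about 1 in 20 groups. Traf1 in WT replicate 2 was 2.26 CPM, while the other libraries labelled WT ran from 0.685 to 0.783 CPM. Il17ra in Il17ra-/- replicate 4 was 284 CPM, while the others with that label ran from 181 to 199.75 CPM.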

How the results depend on the processing

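Ripk1 stayed called and lower under all 18 alternatives (log2 fold change −1.16 to −1.06). The count of members called was 1, Ripk1, with RLE size factors, library totals alone, no filter on low counts and the replicate block, and it ran from 1 to 2 when a library was left out. It was 2 without both libraries that stood apart in an earlier analysis of these data (WT replicate 2 and Il17ra-/- replicate 1). DESeq2 called 1026 genes, 504 of them lower, and 7 pathway genes other than the members (Traf6, Tnfsf10 and Xiap higher, Mcl1, Tnip2, Bax and Tnfaip3 lower), against 491, 274 and 2. Leaving out 1 library gave 275 to 567 called genes, 175 to 299 of them lower, and 2 to 3 pathway genes. The lowest counts came without Il17ra-/- replicate 3 (275) and replicate 1 (323). With library totals alone, 41.3% of the calls were lower against 55.8%. Signs changed, none of them called, for Tradd with library totals alone (0.0288), limma voom (0.0137), without both libraries that stood apart (0.12), without WT replicate 2 (0.16) and without Il17ra-/- replicate 4 (0.0265), for Traf1 without WT replicate 2 (0.20) and without both libraries (0.0905), and for Casp8 without WT replicate 1 (−0.0021) and without Il17ra-/- replicate 2 (−0.0356). Leaving out 1 library gave −0.149 to 0.156 for Tradd, −0.738 to 0.200 for Traf1 and −0.0356 to 0.0533 for Casp8. The cause was not tested. No label says whether same-numbered libraries share more than a number. The correlations of their deviations were 0.0344 to 0.0806, with 3 of 4 WT libraries correlating best with their own number. These values do not settle whether the libraries are paired. The replicate block over numbers 1 to 4 called 366 genes against 417 without the block in the same 8 libraries. Traf1, at 18 to 72 counts, and Tnf are limited by depth, and the stricter filter removed Traf1.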

Other observations

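Counts of Tnf, Lta and Fasl were uneven between libraries of the same label. Il17ra-/- replicate 5 held 25 of the 26 Tnf counts of its label, and the only counts of Lta (5) and Fasl (3) within its label. WT replicate 2 held 56 Tnf counts, against 33, 11 and 3 in replicates 1, 3 and 4, and all 39 Lta counts of its label. Tnfsf10 went the other way there, with 14 counts in WT replicate 2, the fewest of the 9 libraries. That library also had the highest values of its label for Tradd (25.2 CPM), Traf1 (2.26 CPM), Ripk1 (103 CPM), Tnfrsf12a (83.5 CPM), Tnfsf12 (86.6 CPM) and Bax (48.8 CPM), and the lowest for Traf2 (13.6 CPM), Xiap (44.3 CPM) and Traf6 (17.5 CPM).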
